A study of Mus musculus with 8 samples.

Results

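The 34 genes described here encode proteins of homologous recombination and of the Fanconi anemia pathway. They were taken by name from a list of the pathway's genes, which was drawn up with earlier results of these data known, and all 34 were among the 30419 gene names of the count table. Of these, 33 had 10 or more counts in at least 2 libraries and were among the 12296 genes tested. The exception was Fanca, a core complex gene, which had between 0 and 7 counts in a library. RNA came from early-passage mouse embryonic fibroblasts of E13.5 embryos, cells grown from the whole embryo body that divide for a limited number of passages. The WT cells were Dino+/+, and the mutant cells were Dino lox/lox, with lox sites on both alleles of the long noncoding RNA gene Dino that p53 activates. No Cre is named in the labels. Each genotype received vehicle (control) or 0.2 µg/mL doxorubicin for 8 h, which gave 4 groups of 2 libraries with the letters A and B. Nothing says that the letters stand for separate embryos or cultures, so p-values measure only the spread between these libraries, which may be technical.

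Homologous recombination repairs a broken chromosome by copying the intact sister chromatid, and cells use it mainly in S and G2 phase. The ends are first cut back to single strands, the strands are made ready to invade the sister with the help of BRCA1, BARD1, PALB2 and BRCA2, and the joined molecules are later separated by helicases and nucleases. The Fanconi pathway opens DNA crosslinks at stalled replication forks: a core complex attaches ubiquitin to FANCD2 and FANCI, which then calls in nucleases and the recombination proteins. Doxorubicin traps topoisomerase II on DNA and so leaves double-strand breaks, the lesion that this machinery handles.

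The libraries held 25482805 to 33285171 counts, and a count of 0 allows up to 3 counts, or 0.0879 to 0.120 CPM, by counting error only. CPM, the usual depth-scaled count, here divides a gene's count by the library's sum over the 12296 genes tested, after TMM scaling. That scaling adjusts for composition differences between libraries. Mdm2 and Cdkn1a, classic p53 targets, rose in both genotypes and so checked the doxorubicin labels (log2 fold changes 3.09 ± 0.07 and 2.46 ± 0.10 in WT, 2.91 ± 0.07 and 2.50 ± 0.10 in mutant). The treated WT libraries differed from each other the most, with a chi-square of 17.3 per degree of freedom over genes, where the pairs of the other 3 groups had 5.34 to 6.09. All 10 fibroblast markers were tested, with a summed level of 3311 to 4055 CPM. The 8 macrophage and leukocyte markers summed to at most 14.6 CPM in WT control, at least 19.7 CPM in treated WT, at least 17.9 CPM in mutant control and 24.2 to 27.2 CPM in treated mutant libraries (4 of them rose on treatment of WT cells and 1 on treatment of mutant cells). The 5 endothelial markers summed to 1.61 to 3.22 CPM in control and 5.69 to 11.3 CPM in treated libraries, the 5 epithelial markers to at most 0.812 CPM, and the 5 neural markers to 33.3 to 36.3 CPM in WT and 44.96 to 59.4 CPM in mutant libraries. Tek carried the endothelial rise (means 0.976 to 7.53 CPM in WT, 0.426 to 4.50 CPM in mutant cells), and Cdh5 and Kdr were not called. Between controls, the neural markers Map2 (17.4 CPM in WT, 43.6 CPM in mutant cells) and Sox2 were called higher in mutant cells. Nes was called lower (12.6 CPM in WT, 9.58 CPM in mutant cells). No marker of these lists was at 0 in every library, but Krt8, Pecam1 and Krt5 had at most 1, 2 and 3 counts in any library. The part that any such other cells had in the results was not tested. Xist, which is expressed from an inactive X chromosome, stood at 0.276 ± 0.0234 CPM in WT control and 233 ± 29.5 CPM in mutant control libraries (SD, n = 2). The genotypes thus differ in a marker of sex as well as in Dino. A difference tied to the sex or source embryo, on any chromosome, and one tied to the Dino genotype cannot be told apart.

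In WT cells most recombination and Fanconi genes that changed were lower after 8 h of doxorubicin. Of the 33 members tested, 18 fell, 3 rose and 12 did not pass edgeR's quasi-likelihood test at an adjusted p under 0.05. Over all genes tested, 27.9% were called lower and 29.3% higher in this comparison, 57.2% in all. The median log2 fold change was -0.54 over the members and 0.01 over all genes. Without treated WT library A 15 fell and 3 rose, and without library B 14 fell and 4 rose. In mutant cells 9 members fell, 4 rose and 20 were not called (39.4% called), against 25.7% of all genes called lower and 28.3% called higher (54.0% in all), with medians of -0.27 and 0.01. The count of falls in mutant cells is thus near the share of all genes called lower. Both treated WT libraries were below both controls for 22 members and above them for 7, where 38.2% and 39.4% of all genes were (77.6% in either direction). In mutant cells they were below for 18 and above for 6, where 37.6% and 39.2% of all genes were (76.9% in either direction). Falls of at least 2-fold were called for 10 members in WT and for 3 in mutant cells, where 7.48% and 6.48% of all genes were, so the mutant count is near that of all genes. Such a rise was called for 1 member, Rad51d, in each genotype, against 13.3% and 12.7% of all genes. In RNA from whole cultures, fewer cells in the phases that use these genes and less RNA per cell cannot be told apart.

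**Figure D1:**
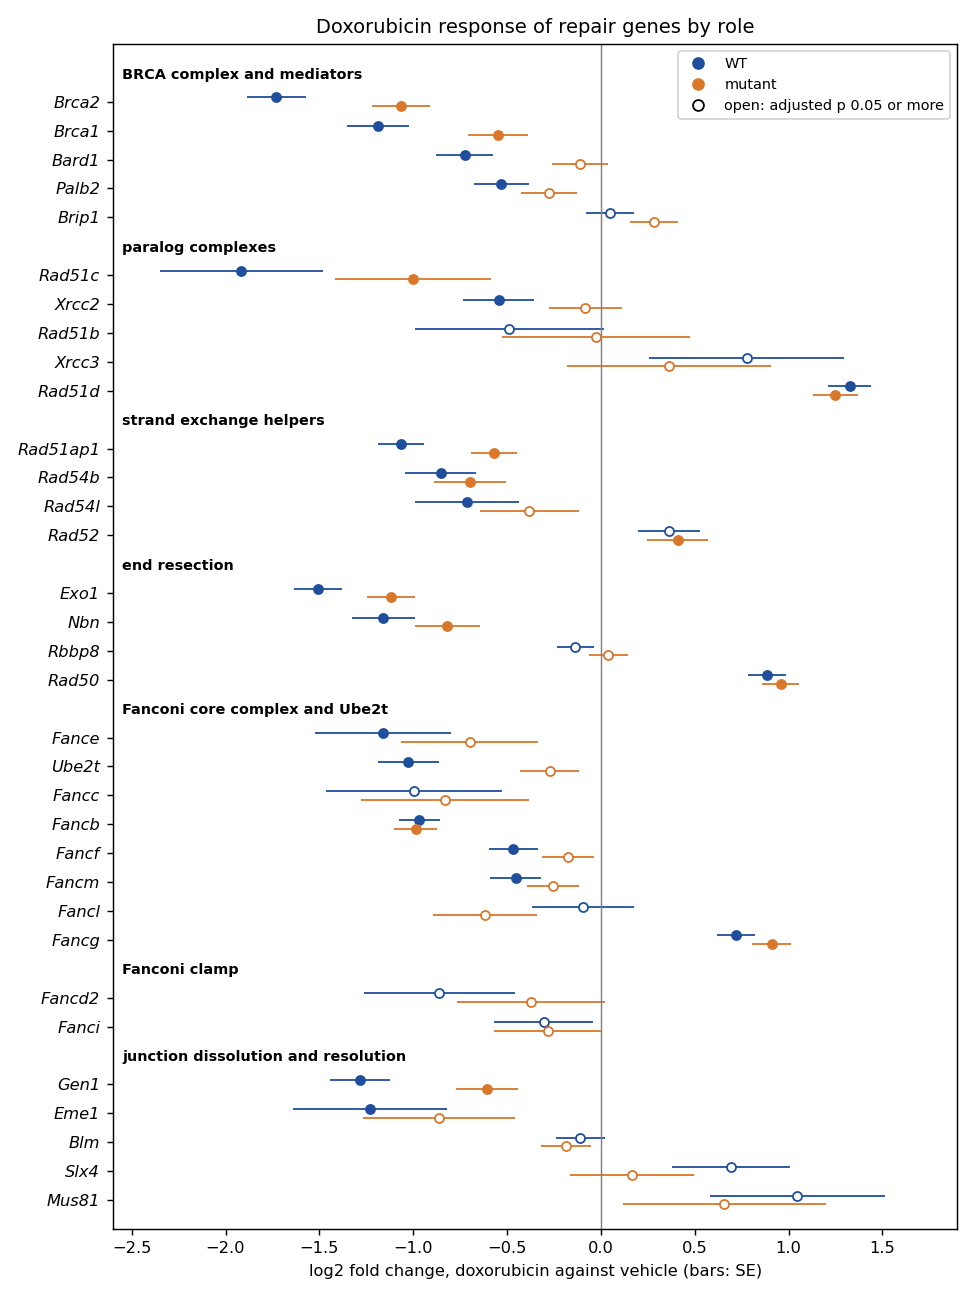
Log2 fold change of doxorubicin against vehicle for the 33 repair genes tested, grouped by role, in WT (blue) and mutant (orange) cells, with SE bars (n = 2 libraries per group) and filled points where the adjusted p is under 0.05. Most filled points lie left of 0, from Rad51c at -1.92 upward, while Rad51d, Rad50 and Fancg lie right of 0 in both genotypes.

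The sequence before the start site is shown for the 5 members that differed between the treated genotypes, as given further on, and for Fancg, which rose, because E2F sites and CCAAT boxes are common at genes of the S and G2 phases. The RefSeq promoter table on GRCm38.p6 held 26 of the 34 members (not Rad51d, Rad54b, Xrcc2, Rbbp8, Nbn, Rad50, Exo1 and Fancd2), and the first entry of a gene was searched over the 250 bases before its start, on both strands. Of the 29 member entries, 26 had the first bases of the RNA in a GENCODE M21 transcript of that gene, and the Brca2 entry was not among them. Capitals mark matches to TTTCCCGC or TTTGGCGC (E2F), TTTGAA (cell cycle homology region, CHR) or CCAAT, in either direction. Stretches stop where GENCODE annotates an exon, and for Fancg, whose match lies in its annotated first exon, 30 bases are shown.
Brca2 (chr5:150522371-150522620, plus strand): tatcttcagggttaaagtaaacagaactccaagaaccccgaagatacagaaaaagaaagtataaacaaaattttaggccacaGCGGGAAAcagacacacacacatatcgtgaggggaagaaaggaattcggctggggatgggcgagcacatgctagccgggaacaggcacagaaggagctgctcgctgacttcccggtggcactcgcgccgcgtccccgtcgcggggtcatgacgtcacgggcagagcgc
Bard1 (chr1:71103147-71103222, minus strand): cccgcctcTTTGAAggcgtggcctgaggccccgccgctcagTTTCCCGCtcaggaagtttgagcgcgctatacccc
Brca1 (chr11:101551956-101552148, minus strand): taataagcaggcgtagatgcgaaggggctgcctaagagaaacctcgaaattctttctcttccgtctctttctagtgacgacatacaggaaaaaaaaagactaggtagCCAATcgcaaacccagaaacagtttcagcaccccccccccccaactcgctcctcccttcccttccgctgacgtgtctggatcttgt
Rad51ap1 (chr6:126939588-126939837, minus strand): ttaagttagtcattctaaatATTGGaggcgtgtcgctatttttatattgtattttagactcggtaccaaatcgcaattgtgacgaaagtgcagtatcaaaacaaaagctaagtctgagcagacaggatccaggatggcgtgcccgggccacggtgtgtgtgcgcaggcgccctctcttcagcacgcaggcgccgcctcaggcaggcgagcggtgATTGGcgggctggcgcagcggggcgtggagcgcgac
Ube2t (chr1:134962315-134962564, plus strand): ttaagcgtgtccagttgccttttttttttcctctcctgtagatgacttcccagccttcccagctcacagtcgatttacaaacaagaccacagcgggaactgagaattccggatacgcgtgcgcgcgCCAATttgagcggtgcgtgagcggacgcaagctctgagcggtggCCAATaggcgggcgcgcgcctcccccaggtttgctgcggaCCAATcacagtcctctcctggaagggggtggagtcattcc
Fancg (chr4:43010335-43010364, minus strand): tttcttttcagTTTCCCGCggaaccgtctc

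TTTCCCGC occurred in Brca2 and Bard1, which fell, and in Fancg, which rose, and TTTGGCGC in no member. That makes 3 of 26 members (11.5%) with an E2F match, where 2.65% of 8912 tested genes in the table had one. CCAAT occurred in 15 of 26 members (57.7%, against 36.8%), 3 times in Ube2t at bases -124, -80 and -40 before the start. TTTGAA occurred only in Bard1 (3.85%, against 10.3%). The 26 members include Fanca, which was not tested and has 2 CCAAT matches, while these comparison shares cover tested genes only. Over all 27025 genes with a promoter entry, 34.5% had CCAAT. Matches of different motifs did not overlap in these members. A match to these letters describes the sequence and is not a measured binding site.

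The BRCA genes gave some of the deepest falls. Brca2 encodes a mediator that acts on the single-stranded ends, and its level was 9.51 and 8.09 CPM in WT control libraries A and B, 2.85 and 2.44 CPM with doxorubicin, 9.09 and 7.75 CPM in mutant control and 3.85 and 4.19 CPM in treated mutant libraries. Control and treated libraries did not overlap in either genotype, and the treated mutant libraries lay above the treated WT libraries. Its log2 fold change was -1.73 ± 0.16 in WT (adjusted p = 6.02e-09) and -1.07 ± 0.16 in mutant cells (5.46e-06). Brca1, the ubiquitin ligase and scaffold of the pathway, read 8.28 and 10.2 CPM in WT control, 4.04 and 4.10 CPM in treated WT, 8.16 and 10.4 CPM in mutant control and 7.29 and 5.38 CPM in treated mutant libraries. Its treated libraries were again below the controls, with log2 fold changes of -1.19 ± 0.17 (adjusted p = 2.48e-06) in WT and -0.55 ± 0.16 (0.00659) in mutant cells. The mutant call of Brca1 was lost without mutant control library B (-0.36, adjusted p = 0.145) or without treated mutant library B (-0.34, adjusted p = 0.145).

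Bard1 encodes the partner that BRCA1 needs for its ligase activity. It went from 8.39 and 6.59 CPM to 4.18 and 4.82 CPM in WT libraries, a log2 fold change of -0.73 ± 0.15 (adjusted p = 0.000346). In mutant libraries it read 7.75 and 7.38 CPM without and 6.49 and 7.52 CPM with doxorubicin, ranges that overlap, and it did not pass (-0.11 ± 0.15, adjusted p = 0.557). Palb2, the bridge between BRCA1 and BRCA2, went from 6.31 and 5.71 to 4.04 and 4.26 CPM in WT (-0.53 ± 0.15, adjusted p = 0.00401) and read 5.86 and 5.89 and then 5.13 and 4.59 CPM in mutant cells, where it was not called (-0.27 ± 0.15, 0.128). The helicase gene Brip1, which works with BRCA1, was called in neither genotype. It had 8.84 and 11.5 CPM in WT control and 10.97 and 10.1 CPM in treated WT libraries, which overlap. Its mutant libraries read 9.50 and 10.5 CPM without and 12.1 and 12.3 CPM with doxorubicin. The log2 fold changes were 0.05 ± 0.13 in WT and 0.29 ± 0.13 in mutant cells (adjusted p = 0.0658 in mutant cells). The mutant value passed without WT control library A (adjusted p = 0.0466) or B (0.0483) and with only the 4 mutant libraries (0.0417). Of the 5 BRCA genes, then, 4 fell in WT and 2 in mutant cells, and none rose. The shares of all genes called lower and higher were 27.9% and 29.3% in WT and 25.7% and 28.3% in mutant cells.

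Rad51b, Rad51c, Rad51d, Xrcc2 and Xrcc3 encode related proteins that form small complexes in recombination, and these 5 genes did not move together. Rad51d had the largest rise of all members, from 7.02 and 8.47 CPM to 20.3 and 18.8 CPM in WT and from 7.06 and 7.18 CPM to 17.3 and 16.6 CPM in mutant libraries. All treated libraries stood above all control libraries, and the log2 fold changes were 1.33 ± 0.11 (adjusted p = 1.84e-09) and 1.25 ± 0.12 (9.84e-09). Rad51c, whose product binds that of Rad51d in the same complex, went the other way. It read 1.26 and 0.967 CPM in WT control, 0.232 and 0.344 CPM in treated WT, 1.06 and 1.02 CPM in mutant control and 0.280 and 0.752 CPM in treated mutant libraries. These are few reads: 34 and 33 counts in WT control and 7 and 11 in treated WT libraries. The WT log2 fold change was -1.92 ± 0.43 (adjusted p = 0.000721). The mutant value was -1.0005 ± 0.41 (0.0463), and this call was lost in 8 of 14 alternatives, with an adjusted p of 0.418 and a log2 fold change of -0.46 without treated mutant library A, 0.130 and 0.105 without mutant control library A or B, and 0.0548 and 0.0529 without WT control library A or B.

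Xrcc2, another paralog, had 6.39 and 5.45 CPM in WT control and 4.01 and 4.07 CPM in treated WT libraries, a log2 fold change of -0.54 ± 0.19 (adjusted p = 0.0185). This call was lost without WT control library A (adjusted p = 0.132), treated WT library A (0.0664) or treated WT library B (0.0569), and with DESeq2 (0.0536). Its mutant libraries read 5.14 and 5.14 CPM without and 3.53 and 6.17 CPM with doxorubicin, so the treated pair spread around the control pair and the gene did not pass (-0.08 ± 0.19, 0.740). Without treated mutant library B the mutant log2 fold change was -0.54. Rad51b and Xrcc3, with at most 17 counts in a library, had 0.232 to 0.557 and 0.169 to 0.532 CPM over all libraries and did not pass in either genotype, with log2 fold changes of -0.49 ± 0.50 and 0.78 ± 0.52 in WT and -0.03 ± 0.50 and 0.36 ± 0.54 in mutant cells. At that depth the SE is near 0.5, and a change of that size was not detectable. Xrcc3 also shares exon bases with Klc1 on the opposite strand, and the strand setting of the counting is not given in the sources used here.

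Of the 4 genes whose products help strand pairing and exchange, 3 fell in WT cells, and 2 fell and 1 rose in mutant cells. The shares of all genes called lower and higher were 27.9% and 29.3% in WT and 25.7% and 28.3% in mutant cells. Rad51ap1, which stimulates strand exchange, had 11.2 and 12.6 CPM in WT control, 5.90 and 5.48 CPM in treated WT, 11.1 and 11.6 CPM in mutant control and 7.93 and 7.44 CPM in treated mutant libraries. The fall held in both genotypes with no overlap between control and treated libraries, at -1.06 ± 0.12 (adjusted p = 1.92e-07) and -0.57 ± 0.12 (0.000497). Rad54b, a chromatin remodeler of the SWI2/SNF2 family, went from 6.24 and 5.33 to 2.98 and 3.38 CPM in WT (-0.85 ± 0.19, adjusted p = 0.000506) and from 5.59 and 5.45 to 4.25 and 2.57 CPM in mutant libraries (-0.70 ± 0.19, 0.00425). Its treated mutant libraries lay far apart, and without library B of that pair the log2 fold change was only -0.37. Rad54b shares exon bases with Fsbp on the same strand.

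Rad54l, the closer relative of yeast Rad54, had 1.63 and 1.35 CPM in WT control and 0.928 and 0.877 CPM in treated WT libraries (-0.71 ± 0.28, adjusted p = 0.0322). In mutant libraries it read 1.61 and 1.76 and 1.40 and 1.19 CPM and did not pass (-0.38 ± 0.27, 0.240). The WT call was lost without WT control library A (adjusted p = 0.165), treated WT library A (0.0806) or B (0.116), and with DESeq2 (0.135). Rad54l shares exon bases with Lrrc41 on the opposite strand. Rad52, whose product anneals single strands, was the only one of the 4 above 0. It went from 4.05 and 3.69 to 5.37 and 4.57 CPM in WT, where it did not pass (0.36 ± 0.16, 0.0635), and from 4.56 and 3.69 to 5.69 and 5.26 CPM in mutant cells, where it did (0.41 ± 0.16, 0.0417). Its mutant call was lost without mutant control library B (0.292), treated mutant library A (0.169) or B (0.0655), with DESeq2 (0.135) and with no filter (0.0595), and its WT value passed without treated WT library B (0.0422).

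Genes of end resection, the trimming that commits a break to recombination, moved in both directions. RAD50 and NBN are subunits of the MRN complex, which senses the break, and Mre11a, which encodes its nuclease, is not a member but had a log2 fold change of -0.34 ± 0.14 in WT (adjusted p = 0.0437) and -0.11 ± 0.15 in mutant cells (0.547, not called). Rad50 read 10.95 and 11.2 CPM in WT control, 20.5 and 20.5 CPM in treated WT, 10.6 and 11.1 CPM in mutant control and 20.6 and 21.4 CPM in treated mutant libraries. On the log2 scale it thus rose by 0.89 ± 0.10 (adjusted p = 1.11e-07) in WT and 0.96 ± 0.10 (5.08e-08) in mutant cells, with closely grouped pairs. Nbn fell, from 8.02 and 8.21 to 4.48 and 2.82 CPM in WT (-1.16 ± 0.17, adjusted p = 4.57e-06) and from 7.58 and 7.51 to 4.09 and 4.47 CPM in mutant libraries (-0.82 ± 0.17, 0.000363). Exo1, the exonuclease that extends resection, had the largest fall in this role: it went from 13.9 and 15.8 to 5.27 and 5.20 CPM in WT and from 13.6 and 16.1 to 7.09 and 6.61 CPM in mutant libraries. Those are log2 fold changes of -1.51 ± 0.13 (adjusted p = 1.46e-09) and -1.12 ± 0.13 (1.49e-07), and treated and control libraries were far apart. Rbbp8, which encodes the resection starter CtIP, did not pass in WT (-0.14 ± 0.10) or mutant cells (0.04 ± 0.10), with 13.99 to 15.9 CPM in the 4 control and 14.2 to 15.2 CPM in the 4 treated libraries.

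**Figure D2:**
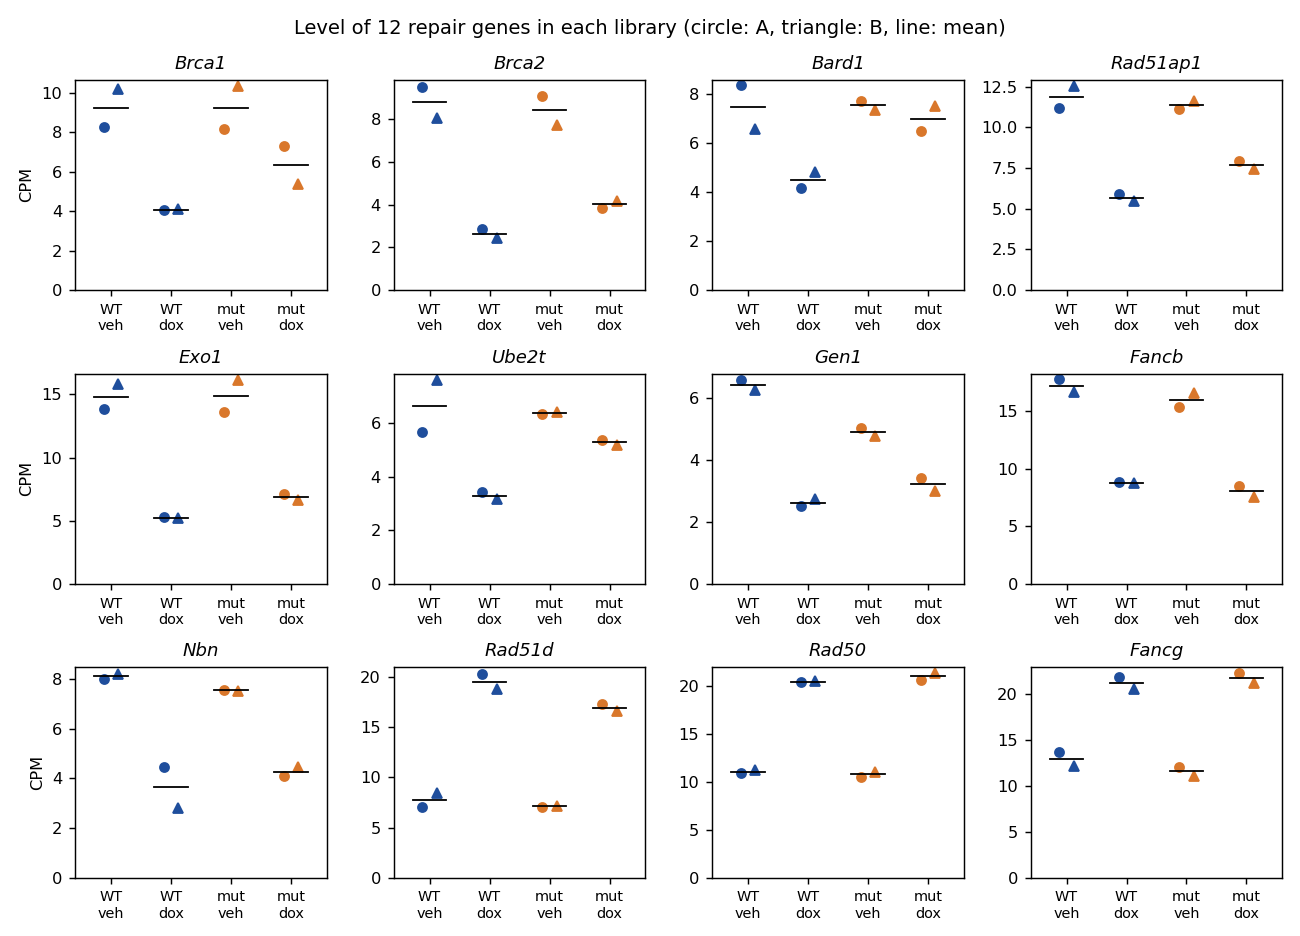
CPM of 12 repair genes in each of the 8 libraries, on axes that start at 0, with circles for libraries A, triangles for libraries B, blue for WT, orange for mutant cells and a line at the mean of each pair. Rad51d, Rad50 and Fancg stand higher in all treated libraries, Fancb and Exo1 lower in all treated libraries, and Bard1 and Ube2t are lower in the treated WT pair than in the treated mutant pair.

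In the Fanconi core complex, the ubiquitin ligase of the pathway, 4 subunits fell and 1 rose in WT cells. With Ube2t, 8 genes of this role were tested: 5 fell and 1 rose in WT, and 1 fell and 1 rose in mutant cells. The shares of all genes called lower and higher were 27.9% and 29.3% in WT and 25.7% and 28.3% in mutant cells. Fancb, an X-linked subunit of the catalytic module, gave nearly equal falls in both genotypes: 17.8 and 16.7 CPM in WT control, 8.85 and 8.73 CPM in treated WT, 15.4 and 16.6 CPM in mutant control and 8.53 and 7.60 CPM in treated mutant libraries. Its log2 fold changes were -0.97 ± 0.11 (adjusted p = 1.29e-07) and -0.99 ± 0.11 (2e-07). Fancg rose instead, from 13.7 and 12.2 to 21.9 and 20.5 CPM in WT (0.72 ± 0.10, adjusted p = 3.46e-06) and from 12.1 and 11.1 to 22.4 and 21.2 CPM in mutant libraries (0.91 ± 0.11, 1.96e-07). FANCG is a scaffold subunit of the same complex, so 2 subunits moved in opposite directions in every library pair.

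Fancf, an adaptor subunit, went from 9.54 and 9.29 to 6.36 and 7.23 CPM in WT, a log2 fold change of -0.47 ± 0.13 (adjusted p = 0.00428) a call that was lost without treated WT library A (0.0512). Its mutant libraries read 6.79 and 8.09 and 6.45 and 6.73 CPM and did not pass (-0.18 ± 0.14, 0.300). Fancm, the translocase that anchors the complex on DNA, had 8.91 and 7.27 CPM in WT control and 5.93 and 5.82 CPM in treated WT libraries, a log2 fold change of -0.45 ± 0.14 (adjusted p = 0.00746) a call that was lost without WT control library A (0.119). In mutant cells it read 8.27 and 7.58 and 6.73 and 6.53 CPM (-0.26 ± 0.14, 0.127, not called). Fance, which binds FANCD2, had only 13 to 47 counts in a library, or 1.45 and 1.38 CPM in WT control, 0.796 and 0.470 CPM in treated WT, 1.58 and 1.02 CPM in mutant control and 0.521 and 1.07 CPM in treated mutant libraries. It fell in WT (-1.16 ± 0.36, adjusted p = 0.00930), not without treated WT library B (0.110), and was not called in mutant cells (-0.70 ± 0.37, 0.116) except without treated mutant library B (0.0296). Fancf shares exon bases with Gas2 on the opposite strand.

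Ube2t encodes the ubiquitin conjugase that works with the FANCL ligase subunit. Of all members it had the smallest p for the difference between the doxorubicin responses, given further on, which was not called (adjusted p = 0.425). It read 5.68 and 7.62 CPM in WT control and 3.41 and 3.16 CPM in treated WT libraries, a log2 fold change of -1.03 ± 0.16 (adjusted p = 1.34e-05). In mutant cells it read 6.34 and 6.40 CPM without and 5.37 and 5.18 CPM with doxorubicin, lower in both treated libraries but not past the test (-0.27 ± 0.16, 0.156). Fancc, a core subunit, and Fancl, the ligase subunit itself, had at most 53 counts in a library, at 0.282 to 0.960 and 0.881 to 1.82 CPM, and did not pass (-0.995 ± 0.47 and -0.10 ± 0.27 in WT, -0.83 ± 0.45 and -0.62 ± 0.28 in mutant cells). Fancc passed in WT without WT control library A (adjusted p = 0.0297), and Fancl in mutant cells without treated mutant library B (0.0272). Both share exon bases with an opposite-strand gene, as Fanca does. Of the clamp that the core complex modifies, Fancd2 had 11 to 28 counts in a library, at 0.928 and 0.674 CPM in WT control, 0.365 and 0.501 CPM in treated WT, 0.652 and 0.948 CPM in mutant control and 0.721 and 0.514 CPM in treated mutant libraries. Neither it (-0.86 ± 0.40 in WT, -0.37 ± 0.40 in mutant) nor Fanci (1.0014 to 1.78 CPM, -0.30 ± 0.26 and -0.28 ± 0.29) was called, and both share exon bases with an opposite-strand gene.

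The last step of recombination separates the joined DNA molecules. Gen1, a nuclease that cuts Holliday junctions, had 6.57 and 6.24 CPM in WT control, 2.52 and 2.72 CPM in treated WT, 5.01 and 4.77 CPM in mutant control and 3.40 and 3.01 CPM in treated mutant libraries. Treated libraries were below controls in both genotypes (-1.29 ± 0.16, adjusted p = 5.03e-07 in WT; -0.61 ± 0.17, 0.00363 in mutant cells), and the mutant controls already lay below the WT controls. Eme1, partner of the nuclease MUS81, had 10 to 30 counts in a library, at 0.706 and 0.879 CPM in WT control, 0.365 and 0.313 CPM in treated WT, 0.960 and 0.711 CPM in mutant control and 0.401 and 0.514 CPM in treated mutant libraries. Its WT log2 fold change of -1.23 ± 0.41 (adjusted p = 0.0143) was no longer called without WT control library B (0.105) or treated WT library B (0.0771) and with DESeq2 (0.0835), and the mutant value of -0.86 ± 0.40 did not pass (0.0791).

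Mus81 itself, with 6 to 20 counts or 0.206 to 0.626 CPM in a library, had a log2 fold change above 0 in both genotypes that did not pass (1.05 ± 0.47 in WT, 0.66 ± 0.54 in mutant). Slx4, the scaffold of junction nucleases, had 0.711 to 1.29 CPM and log2 fold changes of 0.69 ± 0.31 and 0.17 ± 0.33 and was not called. Blm, the helicase that dissolves double junctions, stayed between 6.64 and 8.61 CPM in all 8 libraries, with log2 fold changes of -0.11 ± 0.13 and -0.18 ± 0.13 that did not pass. Mus81 shares exon bases with Efemp2, and Eme1 with Lrrc59 and Mrpl27, all on the opposite strand. In all, 11 of the 34 members share exon bases with another coding gene in the GENCODE M21 models, and none of Rad51d, Rad50, Fancg, Brca1, Brca2, Bard1, Ube2t or Exo1 is among them.

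The order of the members' responses was similar in the genotypes. The WT and mutant log2 fold changes come from separate libraries. Over the 33 members their Pearson's r was 0.923 and Spearman's rho 0.879, where all 12296 genes gave 0.907 and 0.885. These are descriptions across genes, which are not independent replicates. The sign was the same for 32 of 33 members, and none was called in opposite directions. All 9 members called lower in mutant cells were also called lower in WT cells, as were 9 others that were called in WT alone: Bard1, Palb2, Xrcc2, Rad54l, Fance, Fancf, Fancm, Ube2t and Eme1. Rad51d, Rad50 and Fancg were called higher in both, and Rad52 in mutant cells alone. A call in 1 genotype alone does not show that the genotypes differ, which the next comparison tests.

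**Figure D3:**
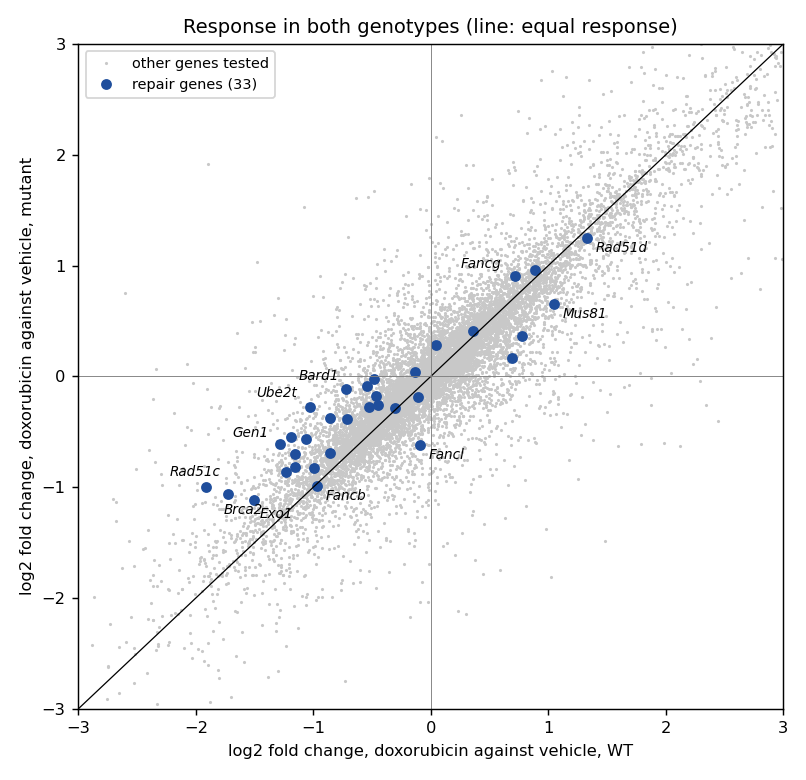
Log2 fold change with doxorubicin in WT (horizontal axis) against mutant cells (vertical axis) for the 33 repair genes (blue) and all other genes tested (grey), with a line of equal response; 421 of the genes tested lie beyond ±3 in either genotype and are not drawn. Rad51c, Brca2, Gen1 and Ube2t lie above the line among the genes that fell, and Fancb and Rad51d lie close to it.

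The next comparison was the difference between the responses, the question that the study's title poses for Dino. Most members had a higher log2 response in mutant than in WT cells, but no single gene passed. The mutant minus WT log2 response was above 0 for 26 of the 33 members (78.8%) and for 52.0% of all genes tested, with a median of 0.26 against 0.01. With edgeR's quasi-likelihood test 0 of 33 were called, where 0.0895% of all genes were (0.0407% higher and 0.0488% lower), and DESeq2 also called 0. At an unadjusted p under 0.05 there were 7 members (21.2%, against 5.68% of all genes), all above 0. These were Ube2t (0.75 ± 0.23, unadjusted p = 0.00328, adjusted p = 0.425), Brca2 (0.66 ± 0.23), Gen1 (0.68 ± 0.23), Bard1 (0.61 ± 0.21), Rad51ap1 (0.50 ± 0.17), Brca1 (0.64 ± 0.23) and Exo1 (0.39 ± 0.18). The 3 genes that rose in both genotypes had differences of -0.08 ± 0.16 (Rad51d), 0.07 ± 0.14 (Rad50) and 0.19 ± 0.15 (Fancg), and Fancb had -0.02 ± 0.16.

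Without doxorubicin no member passed the test between genotypes. Mutant against WT control called 0 of 33 members with edgeR and with DESeq2, where 5.94% of all genes were called with edgeR (2.77% higher and 3.17% lower), and the median was -0.03. At an unadjusted p under 0.05 there were 2, Gen1 (-0.39 ± 0.15, adjusted p = 0.161) and Fancf (-0.34 ± 0.13, 0.168), both lower in mutant cells. Library pairs did not overlap for 2 members that were higher and 7 that were lower in mutant cells, against 21.5% and 23.6% of all genes (45.1% in either direction).

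With doxorubicin, 5 members were higher in mutant than in WT cells and 0 were lower, where 3.93% of all genes were called higher and 3.74% lower (7.67% in all). No member was lower at an unadjusted p under 0.05 either, nor with DESeq2. The 5 were Ube2t (0.68 ± 0.17, adjusted p = 0.0141), Bard1 (0.64 ± 0.16, 0.0128), Brca1 (0.64 ± 0.18, 0.0276), Brca2 (0.60 ± 0.18, 0.0406) and Rad51ap1 (0.43 ± 0.13, 0.0459), each with both mutant libraries above both WT libraries. Exo1, at 0.39 ± 0.14, did not pass (0.108). Library pairs did not overlap for 15 members that were higher and 4 that were lower in mutant cells, against 23.4% and 24.1% of all genes (47.5% in either direction). The median was 0.23 over the members and -0.0017 over all genes.

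These 5 calls rested on few libraries. The count was 0 without treated WT library A and 1 without treated WT library B or treated mutant library A or B, and it was 2 with DESeq2 and 3 with only the 4 treated libraries. Rad51ap1 missed the threshold in all 8 fits that left out 1 library. The direction held for all 5 genes in every alternative. The log2 fold changes ran from 0.40 to 0.84 for Brca1, 0.53 to 0.75 for Bard1, 0.50 to 0.72 for Brca2, 0.38 to 0.49 for Rad51ap1 and 0.63 to 0.74 for Ube2t.

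**Figure D4:**
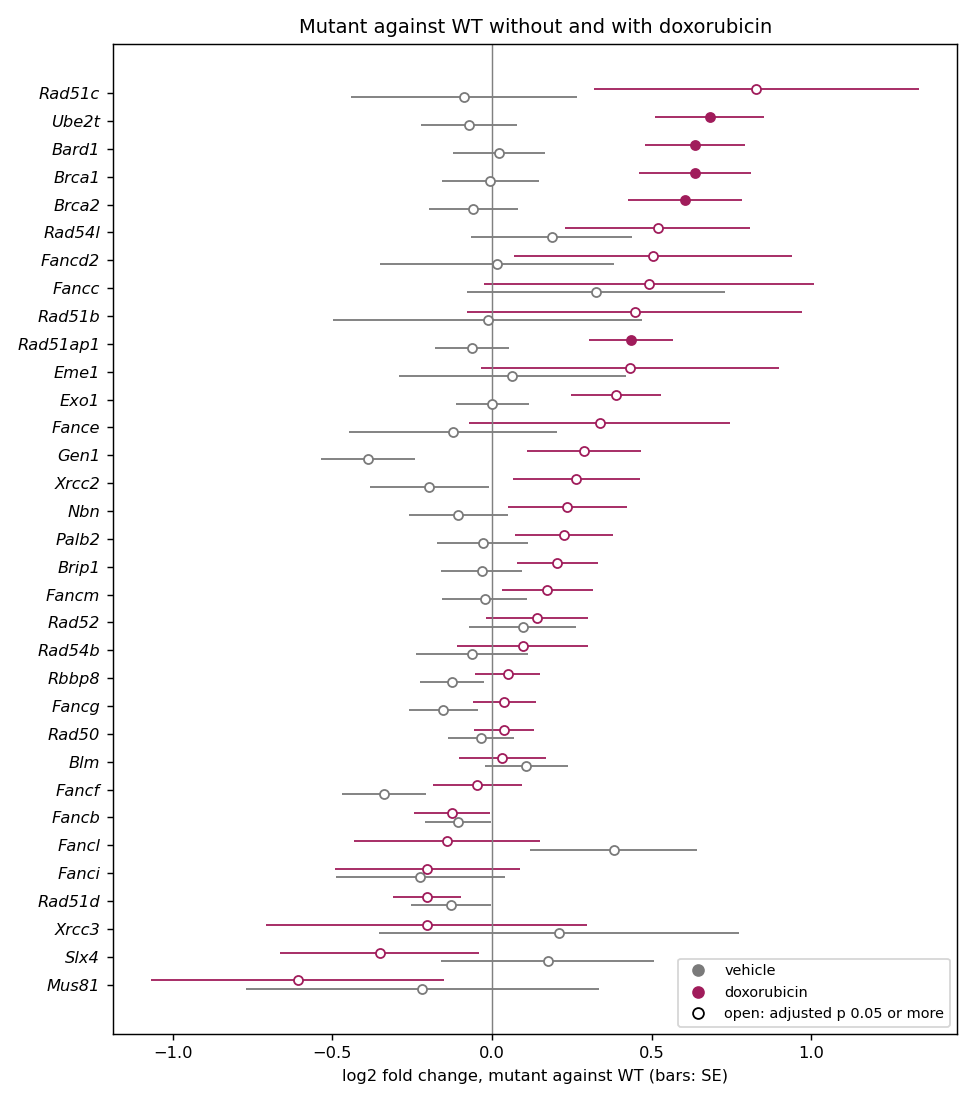
Log2 fold change of mutant against WT for the 33 repair genes, with vehicle (grey) and doxorubicin (red), SE bars (n = 2 libraries per group) and filled points where the adjusted p is under 0.05, ordered by the value with doxorubicin. All grey points are open, and the 5 filled red points, Ube2t, Bard1, Brca1, Brca2 and Rad51ap1, lie between 0.43 and 0.68.

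Genes of DNA replication and division moved in the same libraries. Of 18 proliferation genes, 15 fell and 1 rose in WT and 15 fell and 2 rose in mutant cells, with medians of -0.87 and -0.50. Among all genes tested, 27.9% were called lower and 29.3% higher in WT, and 25.7% and 28.3% in mutant cells. Both all-gene medians were 0.01. The difference between the responses was above 0 for 17 of the 18, against 52.0% of all genes. It was called higher for 2 of them, against 0.0407% of all genes. In treated mutant against treated WT cells 7 of the 18 were called higher, against 3.93% of all genes. The summed level of the 18 genes was 2427 to 2429 CPM in WT control and 2101 to 2105 CPM in treated WT libraries. In mutant libraries it was 2411 to 2420 CPM without and 2311 to 2351 CPM with doxorubicin. Mcm4, which fell, and Rrm2, which rose, carry most of that sum. The other 16 genes summed to 874 to 901 CPM in WT control, 448 to 449 CPM in treated WT, 929 to 934 CPM in mutant control and 601 to 606 CPM in treated mutant libraries. The 34 repair genes summed to 206 and 206 CPM, 168 and 174 CPM, 195 and 198 CPM, and 187 and 187 CPM in these groups. That sum includes Rad51d, Rad50 and Fancg, which rose, so falls and rises offset each other in it. Their means went from 7.74 to 19.5, 11.1 to 20.5 and 12.9 to 21.2 CPM in WT. In mutant cells they went from 7.12 to 16.9, 10.8 to 21.0 and 11.6 to 21.8 CPM. The part of cell cycling in the results for the repair genes was not tested.

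In the wider pathway, too, more genes were called lower than higher. A list of 47 other genes of recombination and crosslink repair held 42 that were tested. In WT cells 19 fell and 4 rose (54.8% called), with a median of -0.26, and in mutant cells 15 fell and 5 rose (47.6%), with a median of -0.23. Over all genes, 27.9% were called lower and 29.3% higher in WT (57.2% in all). In mutant cells these shares were 25.7% and 28.3% (54.0% in all), and both all-gene medians were 0.01. Falls of at least 2-fold were called for 6 in WT and 5 in mutant cells, and such rises for 0 and 1, of 42 genes in each case (7.48% and 6.48% of all genes for falls, 13.3% and 12.7% for rises). Usp1, which removes ubiquitin from FANCD2 and so ends its signal, went from 62.2 ± 0.523 to 19.2 ± 0.888 CPM in WT and from 60.4 ± 0.850 to 22.4 ± 0.783 CPM in mutant cells (SD, n = 2 each). Fignl1, an ATPase that acts in recombination, fell by 1.499 ± 0.09 on the log2 scale in WT and by 1.16 ± 0.09 in mutant cells.

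Dna2, the second long-range resection nuclease, fell by 1.28 ± 0.17 and 0.85 ± 0.18. Rad18, a ubiquitin ligase of damage tolerance, fell by 0.98 ± 0.10 and 1.05 ± 0.10. Apitd1 and Slx1b, both at or below 1.02 CPM on average in every group, had log2 fold changes of -1.97 ± 0.47 and -1.04 ± 0.41 in WT and -1.66 ± 0.47 and -0.87 ± 0.40 (not called) in mutant cells. Rmi2 was called lower in both genotypes, but its mean of 0.0479 CPM in treated WT libraries is under the level of 3 counts, so no fold is given for it. Rev1, a translesion polymerase, rose by 0.91 ± 0.24 and 1.16 ± 0.24. Between the treated groups 2 of the 42 were called higher in mutant cells, Fignl1 (0.36 ± 0.09, adjusted p = 0.0147) and Parpbp (0.50 ± 0.11, 0.00833). That is 4.76% of the list, near the 3.93% of all genes called higher in this comparison. For the difference between the responses 0 of the 42 were called by edgeR, where 0.0895% of all genes were. At an unadjusted p under 0.05 there were 4 (9.52%, against 5.68% of all genes). The median was 0.05, against 0.26 for the members.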

How the data were processed

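RNA-seq gave 8 libraries of mouse embryonic fibroblasts, 2 in each of 4 groups, grouped by the sample titles. The authors deposited whole-number counts per gene name; reads were aligned with Bowtie2 to mm9 and counted with HTSeq, per the submitters' processing notes. Versions, annotation and strand setting are not given in the sources used here. The labels name both an RNA capture kit and sequencing of 3' ends, so counts were not divided by gene length and levels are not compared between genes. Genes with 10 or more counts in at least 2 libraries (12296 of 30419) were fitted in R 4.3.3 with edgeR 4.0.16 (TMM scaling, quasi-likelihood test, 1 coefficient per group, all 8 libraries, 4 residual degrees of freedom), with Benjamini-Hochberg adjustment over all genes tested. All adjusted p-values are two-sided and from this fit unless DESeq2 1.42.0 is named. SEs were derived from each log2 fold change and its F statistic (absolute log2 fold change over root F). Values per library are given for members called in any comparison and for the member of each role with the largest change, and as ranges for others. Brip1 was added after its values were seen. Genes of the wider pathway were named where called with at least a 2-fold change in a doxorubicin response. Mre11a and Parpbp did not meet that rule. Mre11a was named as part of the MRN complex, and Parpbp for its call between the treated genotypes. The members and lists (wider pathway, end joining, mismatch repair, proliferation, cell markers) were chosen with earlier results of these data known. The script was tested on simulated counts. Shared exon bases come from GENCODE M21 and promoters from RefSeq, both on GRCm38, so neither was joined to the files' mm9 coordinates. Alternatives were another tool, scaling, filters, a replicate block, fits restricted to the 4 libraries of a comparison, and omission of single libraries.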

Additional observations from a re-analysis of the deposited data

How the results depend on the processing

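The alternatives gave 14 to 18 members lower and 3 to 4 higher in WT, 7 to 10 lower and 3 to 5 higher in mutant cells, and 0 for the difference of the responses and for mutant against WT control. The count that moved was that of members higher in treated mutant than in treated WT cells: 5 as reported, 2 with DESeq2, 3 with only the 4 libraries compared, and 0 to 4 when 1 library was left out. The cause was not tested, including the part of the smaller number of libraries in the fits that left some out. No single member's called value reversed. No label says that the letters A and B mark a shared source, and deviations of same-lettered libraries correlated at -0.118 between the WT groups, at 0.275 between the mutant groups and at 0.104 to 0.167 elsewhere, so the letters were not taken as pairs. The replicate block gave 18 lower and 3 higher in WT, 8 lower and 4 higher in mutant cells (Rad51c at an adjusted p of 0.0515), and 5 higher in the treated comparison. A crossed pairing of the WT groups, chosen after seeing the data, gave 18 lower and 3 higher. Over all genes, the difference of the responses was called for 5 higher and 6 lower, for 24 and 24 with no filter, and for 0 to 36 and 0 to 13 with 1 library left out. Leaving out 1 library gave 163 to 419 genes higher and 202 to 430 lower between the controls (340 and 390 as reported), and 256 to 665 higher and 255 to 541 lower between the treated groups (483 and 460). Members with few counts, such as Fancd2, Mus81 and Xrcc3, have SEs near 0.4 to 0.5 that limit what could be detected.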

Other observations

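Mismatch repair genes, which correct replication errors, gave both a large rise and several falls with doxorubicin. Msh6, a subunit of the mismatch sensor, rose from 121 ± 7.01 to 406 ± 52.3 CPM in WT and from 116 ± 7.85 to 355 ± 0.501 CPM in mutant cells (SD, n = 2 each), log2 fold changes of 1.74 ± 0.08 and 1.62 ± 0.08. Of the other 6 genes, Pms1 fell (-1.54 ± 0.24 and -1.58 ± 0.26), Msh3 fell (-0.61 ± 0.18 and -0.61 ± 0.19) and Pms2 fell (-0.74 ± 0.24 and -0.94 ± 0.27) in both genotypes. In all, 4 of 7 fell and 1 rose in each genotype (71.4% called). Over all genes, 27.9% were called lower and 29.3% higher in WT, and 25.7% and 28.3% in mutant cells. For the difference between the responses edgeR called 0 of the 7, and 0 were at an unadjusted p under 0.05.

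Of 15 end joining genes tested, 5 fell and 2 rose in WT and 4 fell and 1 rose in mutant cells, with medians of -0.17 and -0.23. The falls are near the shares of all genes called lower, 27.9% in WT and 25.7% in mutant cells. In either direction 46.7% and 33.3% of the list were called, against 57.2% and 54.0% of all genes. Aplf, which helps to assemble the end joining factors, rose by 1.21 ± 0.14 and 1.32 ± 0.15 on the log2 scale. Rif1, which limits end resection and so acts against recombination, fell from 289.95 ± 24.9 to 145 ± 6.42 CPM in WT and from 201 ± 13.4 to 100.2 ± 1.08 CPM in mutant cells. It was also lower in mutant than in WT cells, by -0.53 ± 0.07 without doxorubicin (adjusted p = 5.21e-05) and -0.53 ± 0.08 with it (6.47e-05), and the difference between its responses was -0.0048 ± 0.11. The genes named in these paragraphs were chosen after their values were seen.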
